A study of Cricetulus griseus with 16 samples.

Results

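The SR splicing factors described here are the genes Srsf1, Srsf2, Srsf3, Srsf4, Srsf5, Srsf6, Srsf7, Srsf9, Srsf10 and Srsf11, taken from the table of read counts by gene name with case ignored. Of these 10 genes, 9 were found among the 20824 genes of the table. Srsf3 was absent by name, and 4423 genes of the table carry an identifier only. The cells were CHO (ATCC CCL-61), an established line from Chinese hamster ovary, grown as adherent cultures in Ham's F-12K medium with fetal bovine serum, penicillin and streptomycin. Cultures in logarithmic growth stayed untreated at 37 °C or were heated, to 40 °C (1 h or 6 h) or to 42.5 °C (1 h). Each group had 4 biological repeats, and polyadenylation, splicing and protein were not read out, only the number of sequenced RNA fragments per gene. All groups share the single cell line and the same medium, so the values describe this line.

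SR proteins bind short exonic sequences through RNA recognition motifs and recruit the spliceosome through a tail rich in arginine and serine, the RS domain. Phosphorylation of that tail, by SRPK kinases in the cytoplasm and by CLK kinases in the nucleus, governs their import, their release from nuclear speckles and their activity in splicing. Heat shock is known to alter this phosphorylation, and the genes themselves are known for conserved poison exons, whose inclusion sends the transcript to nonsense-mediated decay. Counts per gene do not separate such isoforms. No sequences are shown, because the tables used here hold none for these genes.

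Total counts were between 10504192 and 14668365 per library, and the 9 genes had between 265 and 6968 counts in each library, far above the 3 counts taken as the floor (0.205 to 0.286 CPM, the counts scaled to a common library total). The heat shock genes Dnajb1, Hsph1 and Hspb1, used as a check of the labels, were higher in every heated group. Dnajb1, a co-chaperone of Hsp70, averaged 28.6 CPM at 37 °C, 87.9 CPM after 1 h at 40 °C, 44.7 CPM after 6 h at 40 °C and 390.1 CPM after 1 h at 42.5 °C. Vim, the intermediate filament of mesenchymal cells, was abundant, with group means of 2011 to 2303 CPM. The markers of blood cells (Ptprc), epithelium (Epcam) and endothelium (Pecam1) had at most 4 counts in any of the 15 libraries analysed. St6gal1, a glycosyltransferase that CHO cells lack, had 0 counts in all of them. Control replicate D was left out, as in the study. In that library Srsf1, Srsf4 and Srsf10 were below the range of the other 3 controls, Srsf2 and Srsf7 were above it, and the other 4 genes lay within it. Counts and calls of SR genes that depend on this choice are given with all 4 controls as well. Overlaps between libraries are described without replicate D.

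After 1 h at 40 °C, Srsf5 was the only SR gene that passed the test, and it fell by 31.3%. After 6 h at 40 °C, Srsf5 and Srsf9 were lower, and Srsf6, Srsf10 and Srsf11 were higher. After 1 h at 42.5 °C, Srsf2, Srsf5, Srsf6, Srsf7, Srsf9 and Srsf10 were all lower, and no SR gene was higher. Srsf5 was thus called in all 3 treatments, while Srsf6 and Srsf10 were called in opposite directions after 6 h of mild heat and after 1 h of the stronger heat. These comparisons share their control libraries, which have no stated incubation time. The effect of 6 h of heat was thus not tested apart from that of time in culture.

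The counts of called genes stand beside those of the whole table. "Past the threshold" means an adjusted p under 0.05 in edgeR's quasi-likelihood test with Benjamini-Hochberg adjustment over all genes tested, and a differentially expressed gene (DEG) has in addition moved by a factor of 1.5 or more in either direction, as the study required. After 1 h at 40 °C, 1 of 9 SR genes was past the threshold and lower, against 1.64% of the 10494 genes tested past it and 0.572% past it and lower. Of the 9, 0 were DEGs (0.334% of all genes), 4 had an unadjusted p under 0.05 (14.8% of all genes) and 0 were DEGs by DESeq2. The shares of all genes in this report are from edgeR. Those called by DESeq2 are not given here, so its counts are not read as a result about the SR genes. After 6 h at 40 °C, 5 of 9 were past it, 3 higher and 2 lower, against 29.4% of 10499 genes (14.7% higher and 14.8% lower), and 1 was a DEG and lower (3.11% of all genes were DEGs, 1.66% lower). After 1 h at 42.5 °C, 6 of 9 were past it, all lower, against 43.1% of 10470 genes past it and 22.3% past it and lower, and 1 was a DEG and lower (7.51% of all genes were DEGs, 4.68% lower). The median log2 fold change of the 9 genes was -0.03, 0.09 and -0.24 in the 3 treatments, and that of all genes was 0.00 each time. The libraries of the groups did not overlap for 2 SR genes that were higher and 1 that was lower after 1 h at 40 °C (6.68% and 6.73% of all genes), for 3 higher and 1 lower after 6 h at 40 °C (17.8% and 18.4%) and for 6 lower at 42.5 °C (25.3%). Control replicate D is not part of these overlaps. With its 354 CPM for Srsf7 and 47.9 CPM for Srsf10, Srsf7 would overlap in both 40 °C groups and Srsf10 at 42.5 °C. When all 4 controls entered, 0, 2 and 4 SR genes were past the threshold, against 0.0383%, 10.7% and 18.2% of all genes.

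**Figure D1:**
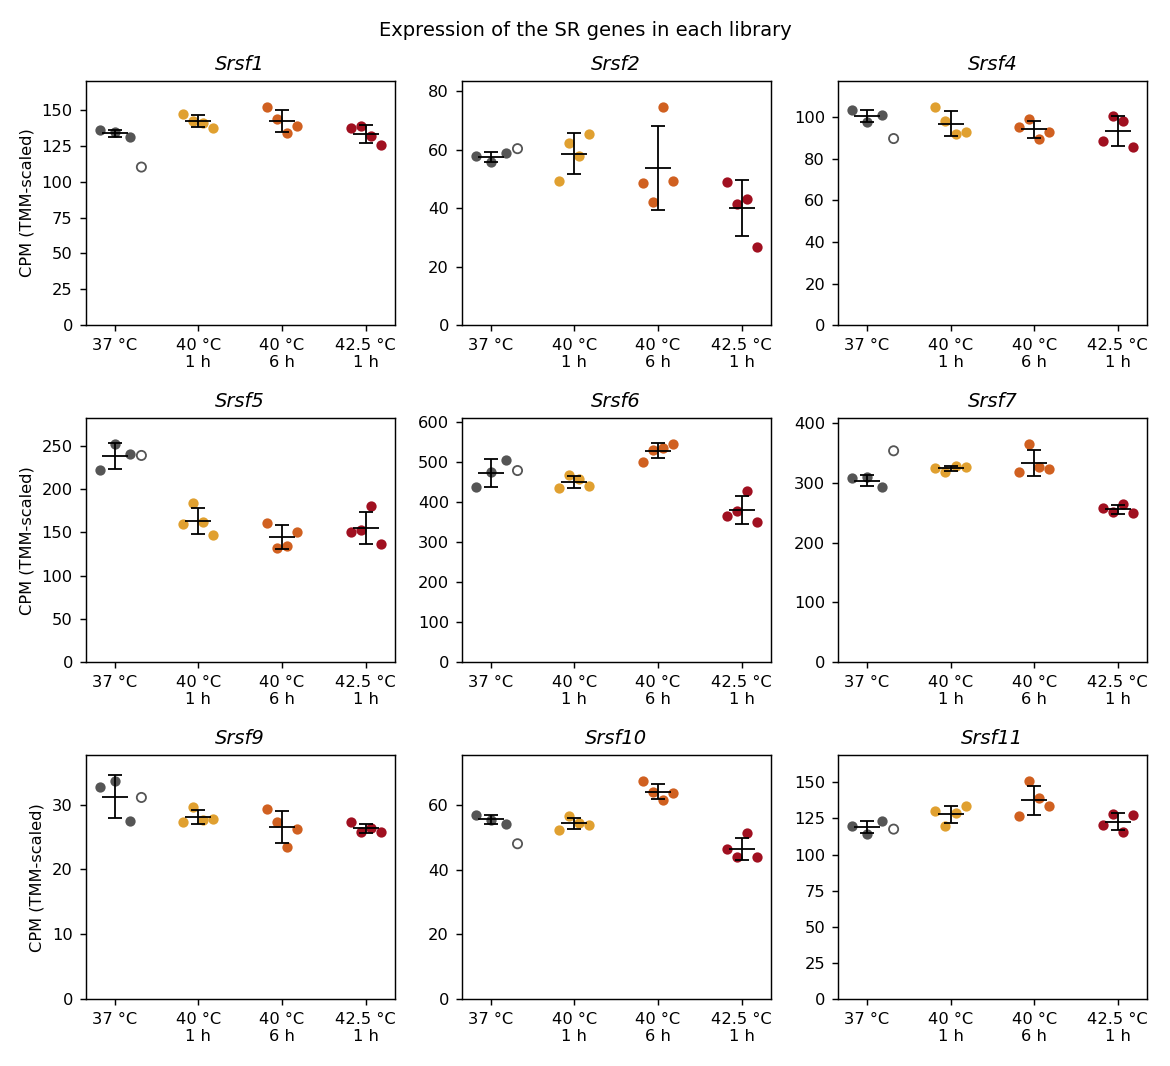
Expression of the 9 SR genes in each of 16 libraries, in CPM scaled by TMM (y axis, from 0, its own scale for each gene), by heat treatment (x axis). Points are libraries, the open point is the 37 °C library left out, and lines with bars are the mean and SD of the filled points; the Srsf5 libraries of the 3 heated groups lie between 132 and 183 CPM, all under the controls at 221 to 252 CPM.

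Srsf5, Srsf4 and Srsf6 are close relatives with a pair of RNA recognition motifs and a long RS domain. Srsf5 (ENSCGRG00001015339) acts as a splicing activator. It had 221, 252 and 240.5 CPM in the 3 controls, and 239 CPM in the library left out. It had 160.1, 183, 161 and 147 CPM after 1 h at 40 °C, 161, 132, 134 and 151 CPM after 6 h at 40 °C, and 149.8, 152, 180.2 and 136 CPM after 1 h at 42.5 °C. Every heated library lay below every control, and the 3 heated groups overlapped each other.

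The log2 fold change of Srsf5 against 37 °C was -0.54 ± 0.06 (SE, adjusted p = 0.000524 by edgeR) after 1 h at 40 °C, -0.72 ± 0.07 (adjusted p = 1.37e-06) after 6 h at 40 °C and -0.61 ± 0.07 (adjusted p = 7.12e-06) after 1 h at 42.5 °C. By its p value it ranked 6 among the 10494 genes tested after 1 h at 40 °C, 20 among 10499 at 6 h and 345 among 10470 at 42.5 °C. The fall came to 31.3%, 39.3% and 34.5%. The fold threshold was met after 6 h in 15 of 15 ways of fitting. With 1 h at 42.5 °C the fold threshold was met in 12 of 15, and missed without 37 °C replicate B (-0.57), without 42.5 °C replicate D (-0.55) and in a fit with the replicate letter as a blocking term (-0.55). Of the 40 °C 1 h fits, it was met without 37 °C replicate A (-0.59) or without 40 °C 1 h replicate B (-0.60). Against all 4 controls the change after 1 h at 40 °C was as large (-0.54) with an adjusted p of 0.0569. In these cultures, fewer cells carrying the transcript and less of it in each cell cannot be told apart.

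Srsf6 (ENSCGRG00001022339) regulates alternative exons, among them one of the tau gene. Its controls had 438, 477 and 506 CPM. It had 436, 468, 457 and 440.4 CPM after 1 h at 40 °C, 501, 531, 536 and 544 CPM after 6 h at 40 °C, and 365, 377, 429 and 349.7 CPM after 1 h at 42.5 °C. The 42.5 °C libraries all lay below the controls, and the 6 h libraries overlapped only with the highest control. The log2 fold change against 37 °C was -0.07 ± 0.05 (adjusted p = 0.552) after 1 h at 40 °C, 0.16 ± 0.05 (adjusted p = 0.0289) after 6 h at 40 °C and -0.30 ± 0.06 (adjusted p = 0.000985 by edgeR) after 1 h at 42.5 °C. The rise after 6 h was small. It was not past the threshold with all 4 controls (adjusted p = 0.147), nor without 37 °C replicate A (0.11, adjusted p = 0.175), 37 °C replicate B (0.17, adjusted p = 0.0704), 40 °C 6 h replicate C (0.15, adjusted p = 0.0698) or 40 °C 6 h replicate D (0.15, adjusted p = 0.0536). The fall at 42.5 °C was past it in 15 of 15 fits.

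Srsf4 (ENSCGRG00001021115) was between 85.6 and 105 CPM in the 15 libraries, with group means of 101 ± 2.90 CPM (SD, n = 3) at 37 °C, 96.9 ± 5.94 CPM (n = 4) after 1 h at 40 °C, 94.0 ± 3.97 CPM (n = 4) after 6 h at 40 °C and 93.2 ± 7.26 CPM (n = 4) after 1 h at 42.5 °C. Its log2 fold changes were -0.05, -0.10 and -0.10, none past the threshold. At 42.5 °C the 95% interval ran from -0.22 to 0.02. Of these 3 relatives, Srsf5 and Srsf6 therefore changed with heat and Srsf4 did not pass the test in any treatment; the differences between the genes were not tested.

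Srsf1 and Srsf9 form another pair of relatives, each with a second, divergent RNA recognition motif. Srsf1 (ENSCGRG00001000670), the founding SR protein, moves between nucleus and cytoplasm and also acts in mRNA export and translation. It had 136, 135 and 131 CPM in the controls, and 110.2 CPM in the library left out. Its group means were 142 ± 4.12 CPM after 1 h at 40 °C, 142 ± 7.59 CPM after 6 h at 40 °C and 133 ± 6.00 CPM after 1 h at 42.5 °C (SD, n = 4). None of its changes was past the threshold. At 42.5 °C the log2 fold change was 0.01, with a 95% interval of -0.09 to 0.10.

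Srsf9 (ENSCGRG00001021965) had 32.6, 33.6 and 27.4 CPM in the controls, between 27.3 and 29.6 CPM after 1 h at 40 °C, between 23.4 and 29.2 CPM after 6 h at 40 °C and between 25.8 and 27.3 CPM after 1 h at 42.5 °C. Control replicate C lay at the level of the heated libraries. The log2 fold change was -0.16 ± 0.08 (adjusted p = 0.354 by edgeR) after 1 h at 40 °C, -0.24 ± 0.09 (adjusted p = 0.0497) after 6 h at 40 °C and -0.24 ± 0.08 (adjusted p = 0.0207) after 1 h at 42.5 °C. The 6 h call held in 7 of 15 fits and the 42.5 °C call in 10 of 15. With all 4 controls neither was past the threshold (adjusted p = 0.152 and 0.0894). Without 37 °C replicate A the adjusted p was 0.183 after 6 h and 0.0895 at 42.5 °C, and without 37 °C replicate B it was 0.241 and 0.124. Leaving out 40 °C 6 h replicate B, C or D gave 0.0556, 0.154 and 0.0952, and leaving out 42.5 °C replicate B gave 0.0548. In the RefSeq annotation of another assembly, Srsf9 and Srsf11 each overlap a neighbouring locus. Whether the authors counted by strand is not given in the sources used here, so reads of the neighbours cannot be told apart from theirs. Srsf2 had no match in that annotation, so an overlap was not checked for it.

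Srsf10 (ENSCGRG00001017946) is known as the SR protein that is dephosphorylated on heat shock and then represses splicing. It had 56.8, 55.3 and 54.1 CPM in the controls, and 47.9 CPM in the library left out. It had 52.3, 56.5, 54.5 and 53.6 CPM after 1 h at 40 °C, 67.1, 63.8, 61.5 and 63.5 CPM after 6 h at 40 °C, and 46.3, 43.8, 51.1 and 43.8 CPM after 1 h at 42.5 °C. The 6 h libraries were all above the controls and the 42.5 °C libraries all below them, while those of 1 h at 40 °C overlapped with the controls. The log2 fold change was -0.03 ± 0.05 (adjusted p = 0.831), 0.21 ± 0.05 (adjusted p = 0.00888) and -0.25 ± 0.06 (adjusted p = 0.00345 by edgeR). The rise after 6 h, of 15.5%, was past the threshold in 15 of 15 fits. The fall at 42.5 °C, of 15.9%, was past it in 14 of 15, and with all 4 controls it was -0.19 with an adjusted p of 0.148.

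Srsf7 (ENSCGRG00001018245), which carries a zinc knuckle beside its RNA recognition motif and links processing to export, had 308, 310.3 and 293 CPM in the controls. It had 324, 318, 328 and 327 CPM after 1 h at 40 °C, 318, 365, 326 and 323 CPM after 6 h at 40 °C, and 258, 251, 265 and 249 CPM after 1 h at 42.5 °C. The libraries at 40 °C lay slightly above the 3 controls and those at 42.5 °C well below them, but the library left out had 354 CPM. At 42.5 °C the log2 fold change was -0.23 ± 0.04 (adjusted p = 0.000192 by edgeR), past the threshold in 15 of 15 fits. At 40 °C it was 0.10 (adjusted p = 0.258) after 1 h and 0.13 (adjusted p = 0.0602) after 6 h. The latter was past the threshold in 4 of 15 fits, among them those without 40 °C 6 h replicate A (adjusted p = 0.0336) or replicate D (adjusted p = 0.0465).

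Srsf2 (ENSCGRG00001023483), a resident of nuclear speckles that also acts in the release of paused RNA polymerase II, varied more than the other members within each heated group. It had 57.9, 55.6 and 59.0 CPM in the controls, 49.1, 62.1, 57.7 and 65.4 CPM after 1 h at 40 °C, 48.7, 42.2, 74.5 and 49.2 CPM after 6 h at 40 °C, and 48.8, 41.3, 43.2 and 26.6 CPM after 1 h at 42.5 °C. All 42.5 °C libraries lay below all controls, replicate D the farthest. The coefficient of variation was 2.98% in the controls and 26.6% after 6 h at 40 °C. At 42.5 °C the log2 fold change was -0.52 ± 0.13 (adjusted p = 0.00385 by edgeR). Without 42.5 °C replicate D it was -0.35 (adjusted p = 0.000255), and without replicate A it was -0.63, past the fold threshold. The DESeq2 Wald test gave an adjusted p of 0.0573. After 6 h at 40 °C the change was -0.10 ± 0.13 (adjusted p = 0.604), and without replicate C of that group, the library at 74.5 CPM, it was -0.30 (adjusted p = 0.00637).

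Srsf11 (ENSCGRG00001012043), a more distant family member that is found in speckles, had 119.7, 115 and 123 CPM in the controls. It had 130.2, 119, 129 and 133 CPM after 1 h at 40 °C, 126, 150.5, 139 and 134 CPM after 6 h at 40 °C, and 120.3, 128, 115 and 127 CPM after 1 h at 42.5 °C. Only the 6 h libraries all lay above the 3 controls. The log2 fold change was 0.11 (adjusted p = 0.31) after 1 h at 40 °C, 0.21 ± 0.06 (adjusted p = 0.0106 by edgeR) after 6 h at 40 °C and 0.06 (adjusted p = 0.334) after 1 h at 42.5 °C. The 6 h call was lost with all 4 controls (0.22, adjusted p = 0.0654) and without 37 °C replicate B (0.19, adjusted p = 0.062).

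**Figure D2:**
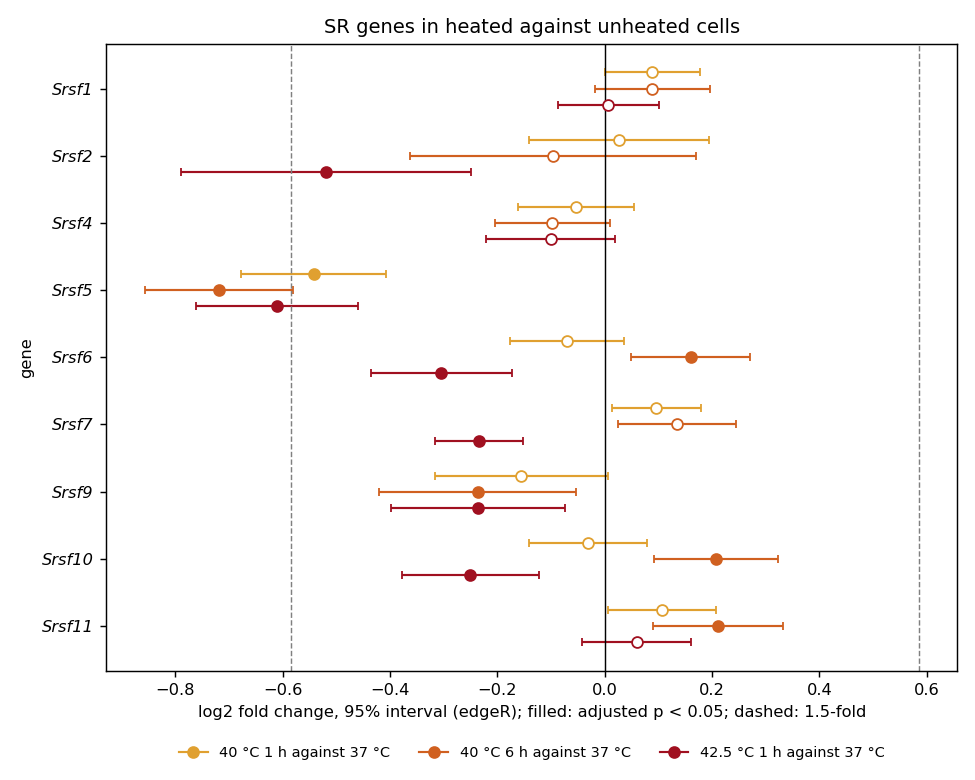
log2 fold change of each SR gene against 37 °C (x axis, with 95% intervals from edgeR) for the 3 heat treatments (colors), genes on the y axis. Filled points have an adjusted p under 0.05 and dashed lines mark 1.5-fold; Srsf5 is lower in all 3 treatments, and at 42.5 °C 6 of the 9 points are filled and to the left of 0.

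Taken by library, the 9 genes together held 0.154% ± 0.00458 of all counts at 37 °C (SD, n = 3), 0.146% ± 0.00358 after 1 h at 40 °C, 0.154% ± 0.000762 after 6 h at 40 °C and 0.122% ± 0.0075 after 1 h at 42.5 °C (n = 4 each). The summed level was 1513 ± 34.6, 1445 ± 22.9, 1523 ± 22.7 and 1253 ± 70.5 CPM. The highest 42.5 °C library, at 1341 CPM, lay below the lowest control, at 1473 CPM. These sums are given as a description, and Srsf6 and Srsf7 hold a large part of them.

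The duration and the temperature of heating were then compared directly, which does not involve the control libraries. The controls form a single group with no stated incubation time, and no unheated group is matched to the 6 h heating. Longer heating was therefore not tested apart from longer time in culture. Between 6 h and 1 h at 40 °C, 2 of 9 SR genes were past the threshold, both higher after 6 h, against 18.5% of 10439 genes past it and 9.45% past it and higher. Srsf6 was higher by 0.23 ± 0.04 on the log2 scale (adjusted p = 0.0017 by edgeR) and Srsf10 by 0.24 ± 0.05 (adjusted p = 0.00453). The 4 libraries of 6 h were all above the 4 of 1 h for both genes, against 10.4% of all genes. Srsf5 differed by -0.17 ± 0.07 (adjusted p = 0.0931), with a 95% interval of -0.32 to -0.03. That difference was past the threshold without 40 °C 1 h replicate D (adjusted p = 0.0418), without 40 °C 6 h replicate A (adjusted p = 0.0238) and with no filter on low counts (adjusted p = 0.0415). Srsf2 differed by -0.12, and by -0.32 (adjusted p = 0.0312) without 40 °C 6 h replicate C. Of the 9 genes 0 were DEGs in this comparison (1.28% of all genes) by edgeR or by DESeq2, and 3 had an unadjusted p under 0.05 (32.3% of all genes).

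Between 42.5 °C and 40 °C at 1 h, 4 of 9 SR genes were past the threshold, all lower at 42.5 °C, against 36.1% of 10441 genes past it and 19.6% past it and lower. Srsf2 was lower by a log2 difference of -0.55 ± 0.13 (adjusted p = 0.00474 by edgeR), Srsf7 by -0.33 ± 0.04 (adjusted p = 5.37e-06), Srsf6 by -0.23 ± 0.05 (adjusted p = 0.00323) and Srsf10 by -0.22 ± 0.06 (adjusted p = 0.00873). For each of these 4 genes the libraries of the groups did not overlap, against 19.7% of all genes tested that were lower without overlap. Without 42.5 °C replicate D the difference of Srsf2 was -0.37, still past the threshold. The difference of Srsf5 between the temperatures was -0.07 with a 95% interval of -0.23 to 0.09, not past the threshold. The differences of the other 4 genes were between -0.08 and -0.05, none past the threshold. Here 0 of 9 were DEGs (5.27% of all genes) by edgeR or DESeq2, and 4 had an unadjusted p under 0.05 (45.9% of all genes).

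**Figure D3:**
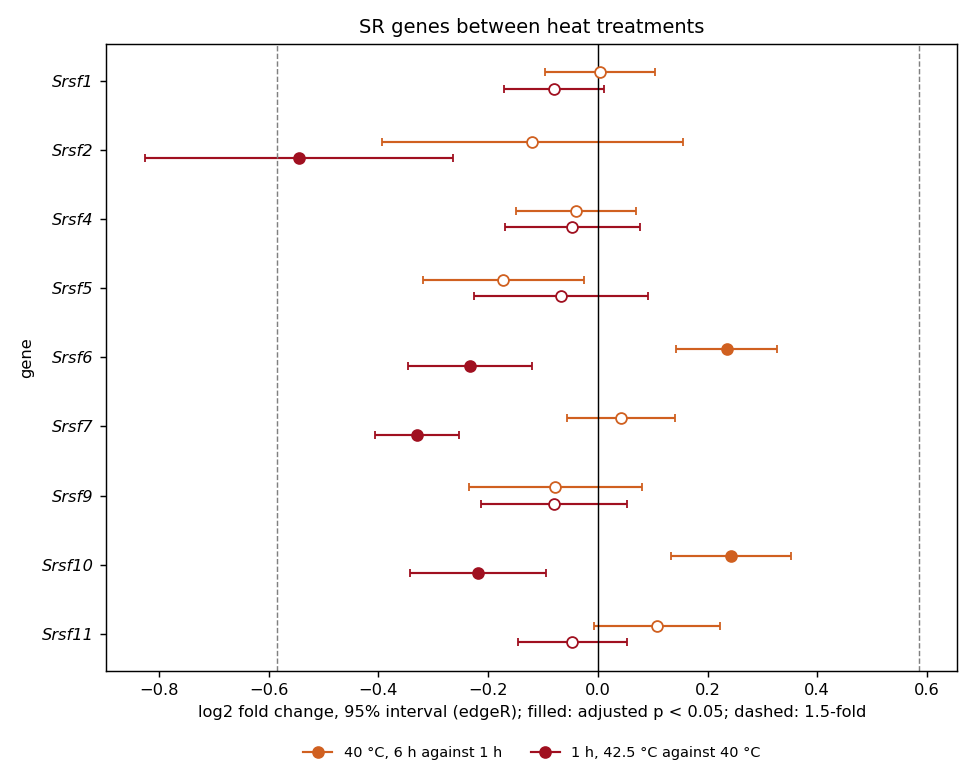
log2 fold change of each SR gene between heat treatments (x axis, with 95% intervals from edgeR), for 6 h against 1 h at 40 °C and for 42.5 °C against 40 °C at 1 h, genes on the y axis. Filled points have an adjusted p under 0.05; Srsf6 and Srsf10 lie to the right for the longer heating and to the left for the higher temperature.

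The kinases, phosphatases and importer of SR proteins were counted from a list of 14 genes, of which 13 were found and 12 tested. Of these 12, 1 was past the threshold (higher) after 1 h at 40 °C, after 6 h at 40 °C 5 (all higher), and after 1 h at 42.5 °C 7 (4 higher and 3 lower). The shares of all genes tested were 1.64%, 29.4% and 43.1%, with 14.7% past it and higher after 6 h and 22.3% past it and lower at 42.5 °C. Leaving out 1 library gave 1 to 2, 3 to 7 and 5 to 8 of the 12, with 2 after 1 h at 40 °C without replicate B of that group and 3 after 6 h without 37 °C replicate A or B. The median log2 fold change was 0.05, 0.14 and 0.04. Against all 4 controls 1, 2 and 3 of the 12 were past the threshold, against 0.0383%, 10.7% and 18.2% of all genes. Shares of all genes in the fits that leave out 1 library are not given here. Clk1, a nuclear kinase that phosphorylates SR proteins and whose own transcript is spliced under stress, had 86.0, 76.8 and 85.4 CPM in the controls. It had 225, 147, 225 and 179 CPM after 1 h at 40 °C, 109, 135, 128 and 129.8 CPM after 6 h at 40 °C, and 219, 277, 199 and 311 CPM after 1 h at 42.5 °C. Every heated library was above every control.

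Clk1 was a DEG in all 3 comparisons with 37 °C, with log2 fold changes of 1.23 ± 0.12 (adjusted p = 9.7e-05 by edgeR), 0.61 ± 0.07 (adjusted p = 1.01e-05) and 1.62 ± 0.12 (adjusted p = 6.45e-08). After 6 h the fold threshold was missed with all 4 controls (0.54), without 37 °C replicate B (0.56) and without 40 °C 6 h replicate B (0.57). Clk1 was lower after 6 h than after 1 h at 40 °C, by -0.62 ± 0.10 (adjusted p = 0.00079), a DEG except without 40 °C 1 h replicate A (-0.54) or C (-0.55) or without 40 °C 6 h replicate A (-0.56). Clk2 rose by 0.31 (adjusted p = 0.00913) after 6 h at 40 °C and fell by -0.61 ± 0.09 (adjusted p = 4.15e-05) at 42.5 °C, where it was a DEG except without 37 °C replicate A (-0.57) or 42.5 °C replicate C (-0.56). The rise of Clk2 against all 4 controls had an adjusted p of 0.0591, and without 37 °C replicate B one of 0.0537. Clk4 was at 0.42, 0.13 and 0.17 in the 3 treatments, none past the threshold. Srpk1, the main cytoplasmic SR kinase, rose by 0.27 (adjusted p = 0.000409) after 6 h at 40 °C. Srpk2 rose by 0.19 (adjusted p = 0.0395) at 42.5 °C, a call that held in 9 of 15 fits. Among the fits that lost it were those without 37 °C replicate A (adjusted p = 0.181) or C (0.106) and without 42.5 °C replicate B (0.105) or C (0.0779). Between 6 h and 1 h at 40 °C, 5 of the 12 genes were past the threshold (18.5% of all genes), and between 42.5 °C and 40 °C 7 were (36.1%). The former count was 3 without 40 °C 1 h replicate A, C or D and without 40 °C 6 h replicate B or C.

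Of a list of 29 other genes whose products carry RS domains or work with SR proteins, 23 were found and 22 tested. The number past the threshold was 5 (all higher) after 1 h at 40 °C and 14 (9 higher and 5 lower) after 6 h at 40 °C. After 1 h at 42.5 °C it was 14 (5 higher and 9 lower). The shares of all genes tested were 1.64%, 29.4% and 43.1%. After 6 h, 14.7% of all genes were past it and higher and 14.8% past it and lower. At 42.5 °C, 22.3% were past it and lower. The median log2 fold changes of the listed genes were 0.04, 0.04 and -0.03. Leaving out 1 library gave 2 to 7, 9 to 13 and 11 to 14. After 1 h at 40 °C the number was 2 without 37 °C replicate B or C and 3 without 40 °C 1 h replicate A, C or D, and after 6 h it was 9 without 37 °C replicate B or C. Against all 4 controls the numbers were 1, 4 and 5 of the 22, against 0.0383%, 10.7% and 18.2% of all genes. Shares of all genes in the fits that leave out 1 library are not given here. Rsrp1, a little-studied RS-rich protein, had 24.6, 25.6 and 27.3 CPM in the controls and 57.8, 49.6, 51.4 and 53.1 CPM after 1 h at 40 °C. Its log2 fold change was 1.04 ± 0.07 (adjusted p = 1.23e-06 by edgeR), 0.51 (adjusted p = 0.000235) and 0.69 (adjusted p = 3.32e-06) in the 3 treatments. Tra2a, an SR-like splicing activator, rose by 0.30 (adjusted p = 0.00662) after 1 h at 40 °C and by 0.49 (adjusted p = 1.21e-06) at 42.5 °C, and with all 4 controls the rise at 40 °C had an adjusted p of 0.161. Between 6 h and 1 h at 40 °C, 10 of the 22 genes were past the threshold, 5 in each direction. Of all genes, 18.5% were past it and 9.45% past it and higher. Between 42.5 °C and 40 °C 13 were past it (3 higher and 10 lower). In that comparison 36.1% of all genes were past it and 19.6% past it and lower. The count between 6 h and 1 h was 5 without 40 °C 1 h replicate B and 6 without 40 °C 6 h replicate B. The paralog of Tra2a, Tra2b, was at 0.15, -0.10 and 0.05 against 37 °C, none past the threshold. Tra2b was lower after 6 h than after 1 h at 40 °C (-0.24, adjusted p = 0.0113 by edgeR), past the threshold in 15 of 15 fits.

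At 42.5 °C, Pnisr (-0.62, adjusted p = 4.06e-07) and Sfswap (-0.60, adjusted p = 8.33e-07), a regulator of splicing that also carries an RS domain, were lower DEGs, and Srek1ip1 was a higher one (0.61, adjusted p = 0.00935). Sfswap missed the fold threshold without 37 °C replicate C (-0.54) and without 42.5 °C replicate B or C (-0.58 each), and Pnisr against all 4 controls (-0.58). Srek1ip1 was not past the threshold with all 4 controls (0.38, adjusted p = 0.263) or without 37 °C replicate B (0.43, adjusted p = 0.0663), and without 42.5 °C replicate A it was at 0.52. Son and Srrm2, the scaffolds of nuclear speckles, were at -0.27 (adjusted p = 4.15e-05) and -0.25 (adjusted p = 9.5e-05) at 42.5 °C. With all 4 controls these values were -0.11 (adjusted p = 0.695) and -0.07 (adjusted p = 0.81), so both calls rested on leaving out replicate D. Against 40 °C at 1 h, a comparison without controls, Son and Srrm2 were lower at 42.5 °C in 15 of 15 fits, at -0.27 and -0.22. Srrm1 was absent by name.

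Nonsense-mediated decay removes SR transcripts that carry a poison exon. Of 15 listed decay factors 10 were found and tested. The number past the threshold was 0 after 1 h at 40 °C by edgeR, with 1 at an unadjusted p under 0.05 and 0 by DESeq2, against 1.64% of all genes past it. It was 2 after 6 h at 40 °C (1 higher, 1 lower) and 5 after 1 h at 42.5 °C (3 higher, 2 lower), against 29.4% and 43.1% of all genes, and none was a DEG. Of all genes, 14.7% were past it and higher and 14.8% past it and lower after 6 h. At 42.5 °C 22.3% were past it and lower. With all 4 controls the numbers in the 3 treatments were 0, 1 and 3, against 0.0383%, 10.7% and 18.2% of all genes. Between 6 h and 1 h at 40 °C 2 were past the threshold (18.5% of all genes), or 1 without 40 °C 1 h replicate C, and between 42.5 °C and 40 °C 5 were (36.1%). The genes named here were chosen after their values were seen. Smg9 was at -0.52 (adjusted p = 3.62e-05) after 6 h at 40 °C. At 42.5 °C Casc3, a component of the exon junction complex, was at -0.46 (adjusted p = 5.8e-07) and Smg1, the kinase of Upf1, at 0.33 (adjusted p = 3.66e-05 by edgeR, 0.204 with all 4 controls).

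**Figure D4:**
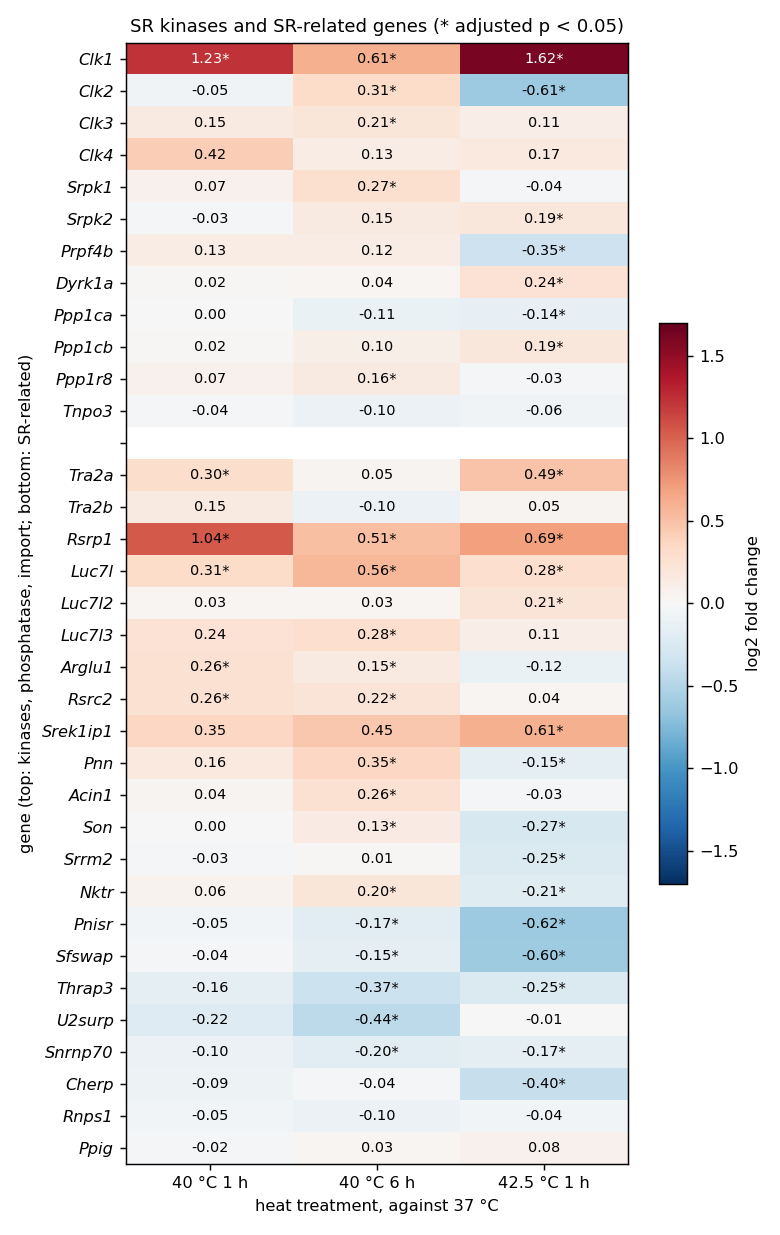
log2 fold change against 37 °C of 12 genes of SR kinases, phosphatases and import (top) and 22 SR-related genes (bottom) in the 3 heat treatments (columns), red higher and blue lower. An asterisk marks an adjusted p under 0.05 in edgeR; Clk1, Rsrp1 and Luc7l carry asterisks in all 3 columns (for Luc7l after 1 h at 40 °C in 8 of 15 fits, and at 42.5 °C with an adjusted p of 0.125 against all 4 controls), and the right column holds the lowest values, those of Pnisr (-0.62) and Clk2 (-0.61).

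The SR genes did not all vary together over the 15 libraries. Pearson's r of log2 CPM was 0.914 for Srsf6 and Srsf10, 0.826 for Srsf7 and Srsf10 and 0.799 for Srsf6 and Srsf7. After the group means were subtracted these became 0.407, 0.214 and 0.14, so most of the likeness lay between groups. Srsf5 and Srsf11 ran opposite to each other both over all libraries (-0.777) and within groups (-0.838). Srsf5 and Srsf10 had an r of -0.0015 over all libraries and of 0.726 within groups. For Srsf10 and Srsf11 the values were 0.328 and -0.711. The pairs named were picked from all pairs of SR genes, so extreme values are to be expected among them. These values are descriptions of 15 libraries that share cell line, treatment groups and scaling.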

How the data were processed

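RNA of CHO cells was sequenced as paired reads of 150 bases in 16 libraries, 4 per group. In CLC Genomics Workbench the authors trimmed, mapped and counted reads per gene, with CHOK1GS_HDv1 as the Chinese hamster genome (demultiplexing with bcl2fastq, per the submitters' processing notes). The deposited values are whole-number read counts without normalization. The annotation release and strand setting are not given in the sources used here. A table with the authors' own fold changes and p values was used only to find which library they left out: its counts matched 15 libraries and not 37 °C replicate D.

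The quasi-likelihood test of edgeR 4.0.16 (R 4.3.3) was run on the 2 groups of each comparison alone, with filterByExpr at its defaults and TMM. Levels are CPM scaled by TMM over all libraries, and levels were not compared between genes, since no lengths were used. Adjusted p values are from this test unless DESeq2 is named, and standard errors are on the log2 scale. The tests ran over all genes. The edgeR test was also run on simulated counts, with changes larger than those of the SR genes and the same spread for every gene. That run does not check calls of changes as small as those of the SR genes. Alternatives were DESeq2 1.42.0 (test and size factors), no filter, at least 10 counts in every library, 1 fit over all groups, edgeR's test against a minimum fold (glmTreat), all 4 controls, the replicate letter as a block, and leaving out each library. "Fits" in the report are 15 such settings per comparison, glmTreat aside and the reported one included.

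The members, related lists and tests were chosen with earlier results of these data known. Named were all members, every list gene called a DEG, and Clk1, Clk4, Srpk1, Srpk2, Tra2a, Tra2b, Srrm1, Srrm2 and Son, plus for each member the gene with the most similar pattern. Outside this rule, Smg9, Casc3, Smg1 and Luc7l were named after their values were seen. Correlations use log2 CPM with a prior count of 2. Planned views of protein and promoter sequences were not made.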

Additional observations from a re-analysis of the deposited data

Results flagged for a closer look

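Differences between heat treatments that passed edgeR's quasi-likelihood test, compared directly and without the control libraries, were found for 4 SR genes. With heating at 40 °C prolonged from 1 h to 6 h, Srsf6 (0.23 on the log2 scale, adjusted p = 0.0017) and Srsf10 (0.24, adjusted p = 0.00453) were higher in 4 of 4 libraries. At 42.5 °C against 40 °C for 1 h, Srsf2 (-0.55, adjusted p = 0.00474), Srsf6 (-0.23, adjusted p = 0.00323), Srsf7 (-0.33, adjusted p = 5.37e-06) and Srsf10 (-0.22, adjusted p = 0.00873) were lower in 4 of 4 libraries. These 6 calls were past the threshold in 15 of 15 fits. For the calls between 6 h and 1 h, time in culture was not tested apart from the duration of heating. Between 6 h and 1 h, 2 of 9 SR genes were past it, against 18.5% of all genes (9.45% past it and higher). Between the temperatures 4 of 9 were, against 36.1% of all genes (19.6% past it and lower). In 36 groups of libraries searched for a single sample far from the others (Dixon's test, of which chance flags about 1 in 20), 0 were found.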

How the results depend on the processing

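Of 630 alternative log2 fold changes of members, 585 kept their direction and side of the threshold. With all 4 controls the number of SR genes past the threshold fell to 0 at 40 °C for 1 h and to 2 at 40 °C for 6 h, and Srsf10 at 40 °C for 1 h changed sign (0.019). A test against the 1.5-fold limit itself (glmTreat) called 0 DEGs at 40 °C for 6 h and 0 at 42.5 °C. The share of all genes called by that stricter test is not given here, so these counts are not read as a result about the SR genes. What the replicate letters stand for is not stated. The lowest correlation of same-letter deviations was between -0.049 and 0.074 in the 5 comparisons, under the 0.1 asked of every pair, so the letters were not taken as pairs. At 40 °C for 1 h the mean was 0.13, against -0.045 for other letters, and 6 of 7 libraries correlated best with their own letter, a hint from the data and not from the design. With the letter as a replicate block, DEGs at 42.5 °C were 0 (6.85% of all genes), with Srsf5 at -0.55. Srsf2 at 40 °C for 1 h was then -0.035, and Srsf7 at 40 °C for 6 h passed (adjusted p = 0.0279 by edgeR). In the block fits 1, 6, 6, 2 and 4 members were past the threshold in the 5 comparisons, against 6.04%, 28.4%, 44.9%, 22% and 38.7% of all genes. At 40 °C for 1 h the block raised the SR-related genes past it from 5 to 10.

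Leaving out 1 library each, DEGs ranged from 0 to 1 at 40 °C for 1 h, from 0 to 2 at 42.5 °C and from 0 to 1 for 42.5 °C against 40 °C, and members past the threshold from 2 to 6 at 40 °C for 6 h. The shares of all genes called in those fits are not given here, so the ranges describe only how far the member counts moved. Values near 0 changed sign: Srsf2 at 40 °C for 1 h (-0.034 to 0.105) and for 6 h (-0.30 to 0.0063), Srsf1 at 42.5 °C (-0.0082 to 0.040), between 6 h and 1 h Srsf4 (-0.065 to 0.00030), Srsf1 (-0.028 to 0.030) and Srsf7 (-0.0038 to 0.064), and Srsf4 between 42.5 °C and 40 °C (-0.079 to 0.00083). The cause was not tested, beyond the fewer libraries. The members had at least 265 counts in every library.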

Other observations

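For each SR gene, the gene with a symbol whose log2 CPM followed it most closely over the 15 libraries, out of 9457 compared, is given as a description. It was Mrfap1 for Srsf1 (r = 0.83), Exosc6 for Srsf2 (r = 0.915), Mcu for Srsf4 (r = 0.827) and Slc6a6 for Srsf5 (r = 0.908). It was Hjurp for Srsf6 (r = 0.956), Zswim3 for Srsf7 (r = 0.966), Rab1b for Srsf9 (r = 0.881), Rexo1 for Srsf10 (r = 0.954) and Zpr1 for Srsf11 (r = 0.936). Each is the highest of many values, and all 15 libraries share cell line, groups and scaling. Srsf9 was the member closest to Srsf5 among those with a positive r (0.718 over all libraries and 0.346 within groups).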
